A study of Mus musculus with 2 samples.

Results

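Mir296, Mir298, Mir335, Mir483 and Mir675 are the mouse microRNA (miRNA) genes examined here. They lie at 3 imprinted loci outside the large imprinted array on chromosome 12, and the rule that chose them uses their position at Gnas, Mest, Igf2 and H19. They are 5 of the 2202 miRNA genes in the count tables. The series holds a single group, wild-type cerebral cortex tissue of strain B6NCrl from the MODEL-AD programme, with no treatment or altered allele in the labels. Its 2 libraries are numbered as biological replicates, described in free text as female controls, with age and sex fields left uncollected. Both cite the same donor record, so differences between these libraries may be technical. P-values set those differences against counting error only and measure no spread between animals. No condition could be compared, and the data give the levels of the genes and how far the libraries differ.

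Imprinted genes are transcribed mainly from the copy inherited from a single parent, as set by methylation at a control region of each locus. Many of them act on growth and metabolism before and around birth. A miRNA is cut from a hairpin within a longer transcript, and its seed, bases 2 to 8 of the mature strand, pairs with the messenger RNAs it represses. At Igf2 and H19, the growth factor gene Igf2 is read from the paternal copy and the noncoding RNA H19 from the maternal copy. Mir483 lies in the former and Mir675 in the latter. Mest, a paternally expressed gene, carries Mir335. Nespas, a paternally expressed antisense transcript of the Gnas locus, is the known source of Mir296 and Mir298.

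The mature sequences show what the counts below could be made of, and how little the 5 genes resemble each other. Each gene has a mature miRNA from either arm of its hairpin, and the deposited counts do not separate the arms. All 5 genes matched RefSeq by symbol (GRCm38.p6). The sequences read 5′ to 3′, with the seed in capitals.
miR-298-5p: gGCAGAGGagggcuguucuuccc
miR-298-3p: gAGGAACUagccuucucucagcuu
miR-296-5p: aGGGCCCCcccucaauccugu
miR-296-3p: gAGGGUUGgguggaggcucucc
miR-335-5p: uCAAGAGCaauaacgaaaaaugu
miR-335-3p: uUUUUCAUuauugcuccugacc
miR-483-5p: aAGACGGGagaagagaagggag
miR-483-3p: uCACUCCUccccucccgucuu
miR-675-5p: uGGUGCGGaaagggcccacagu
miR-675-3p: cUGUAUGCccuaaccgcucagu

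The 10 mature sequences are 21 to 24 nt long and carry 10 different seeds. None of these seeds occurs in a mature miRNA of another gene in the RefSeq table, in which 32.0% of the 1738 mature entries share their seed with another gene. Each mature sequence was found in 1 hairpin of the 1005 in that table. Among GENCODE M21 transcripts, those of Mir675 were also found in its host H19, and the other 8 only in their own gene. Reads placed at several loci enter no gene's count in these tables, and no second miRNA gene that could take such reads was found for these members. The rest of the genome was not searched.

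Mir298 and Mir296 sit close together on the minus strand of chromosome 2 (mm10). Mir298 spans chr2:174267504-174267585 and Mir296 spans chr2:174267047-174267125, with 378 nt between them, and Mir298 comes first in the direction of transcription. Neither lies inside an annotated gene. The annotated end of Nespas, on the same strand, is 13.7 kb before Mir298, and Gnas, on the opposite strand, starts 16.7 kb from it. Mir335 (chr6:30741299-30741396, plus strand) lies in an intron of Mest, overlapping no exon of its 11 transcripts. Mir483 (chr7:142654924-142654996, minus strand) lies in an intron of Igf2, overlapping no exon of its 9 transcripts. Mir675 (chr7:142577064-142577147, minus strand) overlaps an exon of H19 in 3 of 7 transcripts. Mir483 and Mir675 are 77776 nt apart.

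**Figure D1:**
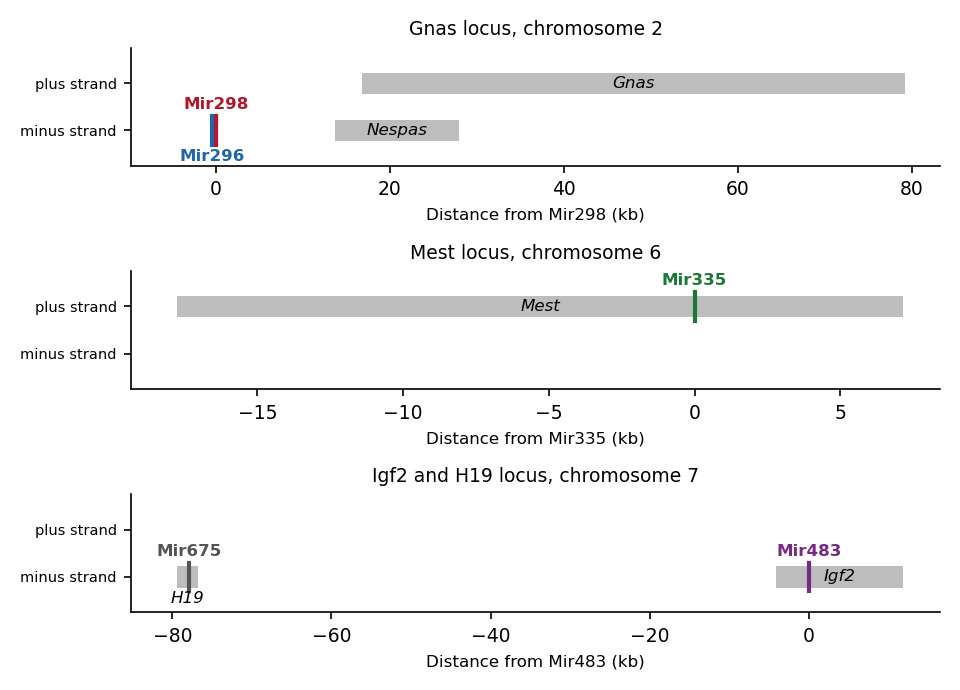
Places of the 5 miRNA genes (coloured lines) and of the imprinted genes around them (grey bars), as distance in kb from Mir298, Mir335 or Mir483, with the strands on separate rows. Mir298 and Mir296 stand 378 nt apart outside the Nespas and Gnas models, whereas Mir335, Mir483 and Mir675 lie inside Mest, Igf2 and H19.

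Replicate 1 held 4429633 sense counts in miRNA genes and replicate 2 held 6985784. Levels are given as CPM, scaled to these totals, so a count of 0 allows up to 0.677 CPM in replicate 1 and 0.429 CPM in replicate 2, taking 3 counts as the limit. Intervals and limits cover only the counting error of reads. The reads carry no molecular identifiers, so the counts are of reads and not of molecules. Cortical markers were present. The neuronal list, with 7 of 10 genes detected (at least 2 CPM in each library), summed to 75078 CPM in replicate 1 and 91448 CPM in replicate 2. Mir124a-1, Mir124a-2 and Mir124a-3 fell short of detection. As numbered copies whose shared reads enter no gene's count, they do not show a low level of their miRNA. Of the muscle list, Mir206 was detected, with 88 counts in replicate 1 and 206 in replicate 2. The other 4, Mir1a-1, Mir1a-2, Mir133a-1 and Mir133a-2, were at 0, but they are numbered copies whose shared reads enter no gene's count, so their zeros do not show an absence of muscle RNA. Across all genes, 438 were detected and 1415 had no count at all.

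Of the 5 imprinted genes, 4 were detected and 1, Mir675, had no read. Together they held 7395 of the sense counts in miRNA genes in replicate 1 (0.167%, 95% Wilson interval 0.163 to 0.171). In replicate 2 they held 18336 of these counts (0.262%, 0.259 to 0.266). Their share was 0.215% ± 0.0676 (SD, n = 2). Most of it was Mir298, at 67.0% of the members' counts in replicate 1 and 86.5% in replicate 2. A CPM of a miRNA gene counts whole reads of mature size, and the order of levels was the same per 100 nt of precursor. Reads placed at several loci enter no gene's count. The shares and ranks of the members may therefore be too high against genes that share reads.

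Mir298, reported to repress the amyloid precursor protein and its processing enzyme BACE1, was the most abundant of the 5. It had 4955 counts in replicate 1 and 15864 in replicate 2, or 1119 CPM (95% Wilson interval 1088 to 1150) and 2271 CPM (2236 to 2306). Its mean level was 1695 ± 815 CPM (SD, n = 2), rank 75 of all genes, with ranks of 95 and 62 in the separate libraries. Replicate 2 was the higher library by a wide margin.

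Mir296, known for a role in blood vessel growth and for targeting pluripotency factors, came next. It had 1699 counts in replicate 1 and 1290 in replicate 2, or 384 CPM (366 to 402) and 185 CPM (175 to 195). Its mean level was 284 ± 141 CPM (SD, n = 2), rank 158. Here replicate 1 was the higher library, the opposite of its neighbour.

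Mir335, known as a suppressor of tumour cell migration and metastasis, varied least between the libraries. It had 602 and 1072 counts, or 136 CPM (125 to 147) in replicate 1 and 153 CPM (145 to 163) in replicate 2, with a mean of 145 ± 12.4 CPM (SD, n = 2) and rank 182. The separate Wilson intervals of its 2 libraries overlapped, which was not so for Mir298, Mir296 or Mir483.

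Mir483, processed from Igf2 transcripts and known from liver, islets and growing tissue, was low. It had 139 and 110 counts, or 31.4 CPM (26.6 to 37.0) in replicate 1 and 15.7 CPM (13.1 to 18.98) in replicate 2, with a mean of 23.6 ± 11.1 CPM (SD, n = 2) and rank 267. Replicate 1 was the higher library, as for Mir296.

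Mir675, cut from H19 and known to restrain placental growth, had 0 counts in both libraries and on both strands. Its level was thus below what this depth can show. The count of Mir483 was 46.3 times the limit of 3 counts for Mir675 in replicate 1 and 36.7 times in replicate 2. These values leave out the counting error of Mir483.

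**Figure D2:**
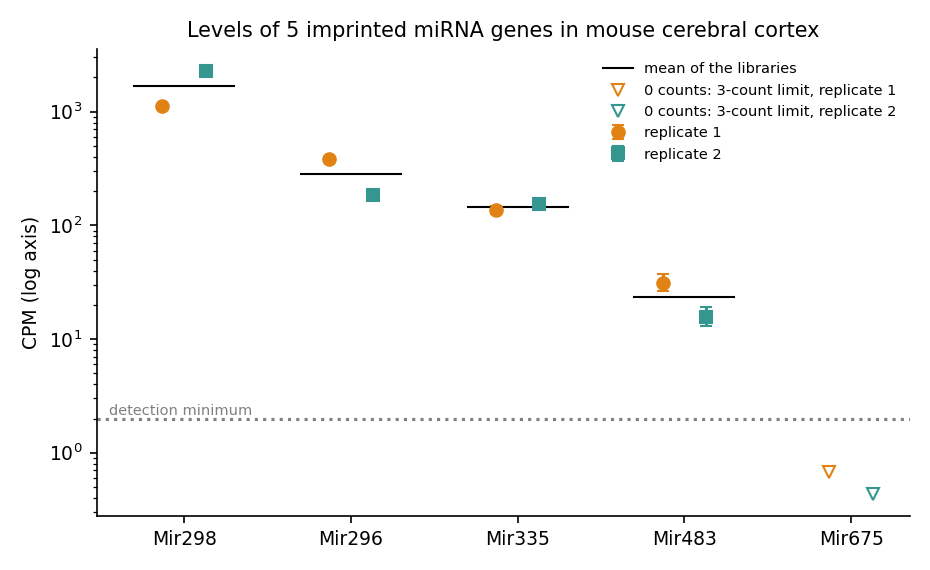
CPM (log axis) of the 5 genes in replicate 1 (circles) and replicate 2 (squares) with 95% Wilson intervals, the mean of both (black line) and, for Mir675, the limit that 0 counts allow (open triangles). Levels step down from Mir298 to Mir483, and the libraries stand apart in opposite directions for Mir298 and Mir296.

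The order Mir298, Mir296, Mir335, Mir483, Mir675 was the same in either library, and no neighbours in it had overlapping ranges. The steps were uneven. Mir298 exceeded Mir296 by 2.92 times in replicate 1 and 12.3 times in replicate 2. Mir296 exceeded Mir335 by 2.82 times in replicate 1 but only 1.20 times in replicate 2. Mir335 exceeded Mir483 by 4.33 and 9.75 times. With 2 libraries these steps are a description, and none was tested across animals.

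The libraries were then compared gene by gene, by an exact two-sided binomial test on counts, allowing for library size after TMM scaling. P-values were adjusted by the Benjamini-Hochberg method over all 438 detected genes. A call needed a ratio of 2 or more and an adjusted p below 0.05. The test sets 2 libraries against their counting error and says nothing of conditions. Of the 4 members tested, 1 was called, Mir298, against 18.0% of all detected genes called in either direction (9.36% toward replicate 2 and 8.68% toward replicate 1). All 4 members were past counting error alone, as were 63.9% of detected genes.

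Mir298 was 2.21 times higher in replicate 2, a log2 ratio of 1.15 (exact 95% counting interval 1.10 to 1.19), and 94.1% of detected genes had a lower ratio. Its exact p was too small for the computation to hold. Mir296 had a log2 ratio of -0.93 (-1.03 to -0.82; adjusted p by the exact binomial test 2.85e-68), or 0.525 of its level in replicate 1, short of the ratio needed for a call. With library totals in place of TMM its log2 ratio was -1.05 and it was called. Mir483 had -0.87 (-1.24 to -0.50; adjusted p by the same exact test 4.80e-06) and was not called. Mir335 had 0.30 (0.16 to 0.45; adjusted exact p 8.36e-05), likewise not called. At a required ratio of 1.5, 3 of the 4 were called, Mir298 toward replicate 2 and both Mir296 and Mir483 toward replicate 1, against 39.0% of detected genes.

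**Figure D3:**
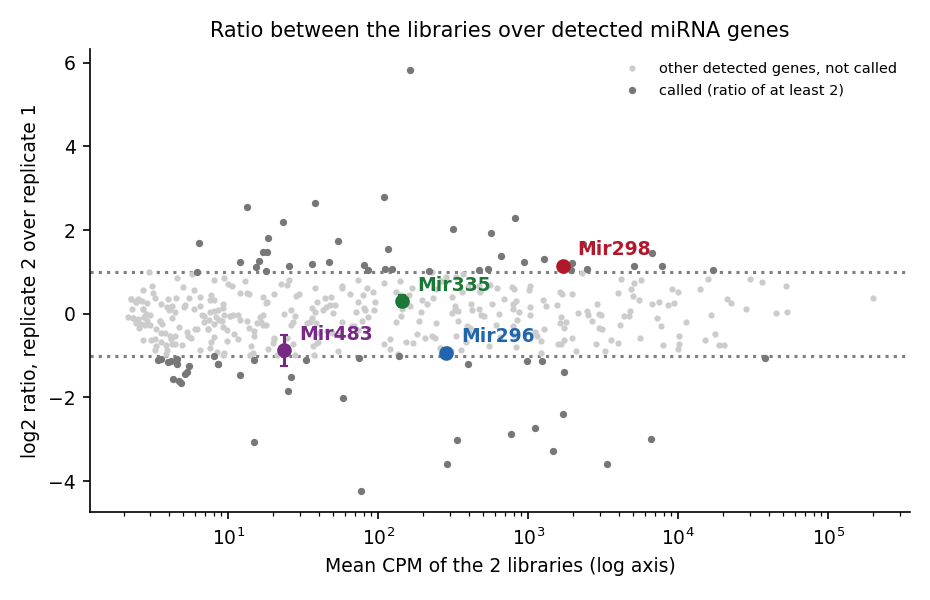
Log2 ratio of replicate 2 over replicate 1 against mean CPM (log axis) for 438 detected genes, with the 4 detected imprinted genes in colour and their exact 95% counting intervals. Dotted lines mark a ratio of 2 in either direction, and Mir298 alone of the 4 lies beyond them.

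The 2 genes at the Gnas locus differed between the libraries in opposite directions. The ratio of Mir298 to Mir296 counts, which does not depend on how the libraries are scaled, was 2.92 in replicate 1 (exact 95% counting interval 2.76 to 3.08) and 12.3 in replicate 2 (11.6 to 13.0). It thus changed 4.22 times between the libraries (3.89 to 4.57; two-sided Fisher's exact test, p = 9.66e-279, adjusted over 2 pairs 1.93e-278). This p again concerns counting error in 2 libraries only. For Mir483 and Mir675 Fisher's exact test gave p = 1.0, since Mir675 had no count in either library. The hairpins of the diverging pair, with both mature arms in capitals, share no mature sequence.
Mir298: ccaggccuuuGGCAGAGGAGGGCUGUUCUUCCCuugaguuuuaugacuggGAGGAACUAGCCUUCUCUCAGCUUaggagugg
Mir296: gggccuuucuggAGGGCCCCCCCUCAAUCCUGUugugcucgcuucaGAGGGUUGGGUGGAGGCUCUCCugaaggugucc

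Closely spaced miRNA genes elsewhere in these libraries gave a scale for this gap, in a comparison chosen after the values were seen. Adjacent detected genes on 1 strand with at most 1000 nt between them formed 65 pairs. The log2 ratios of the 2 genes of a pair lay apart by a median of 0.62, and by more than 1 in 19 pairs. Mir296 and Mir298 lay 2.08 apart, ranking 2 of 65. The wider pair, Mir3093 with Mir9-1, lay 3.71 apart and had as few as 49 counts in a gene. Requiring at least 100 counts in each gene and library left that pair out. Among the 48 pairs that remained, the Gnas pair lay the farthest apart.

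The ratio between the libraries varied with base composition, which differs among these genes. Over the 438 detected genes a linear fit gave -0.35 on the log2 scale for each additional 10% of GC in the precursor, with Pearson's r of -0.36 across genes, which share the same 2 libraries and are not independent. The precursor of Mir335 has 42.9% GC, that of Mir298 has 53.7%, that of Mir483 has 58.9%, that of Mir675 has 63.1% and that of Mir296 has 63.3%. The ratio of Mir335 lay on the trend, which stands at 0.30 for its GC content, and with the trend removed its log2 ratio was -0.05. With the trend removed Mir296 moved to -0.57 and Mir483 to -0.66, while Mir298, near the median GC content of 53.2%, remained at 1.17. The part of base composition in the gap between Mir298 and Mir296 was not tested.

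**Figure D4:**
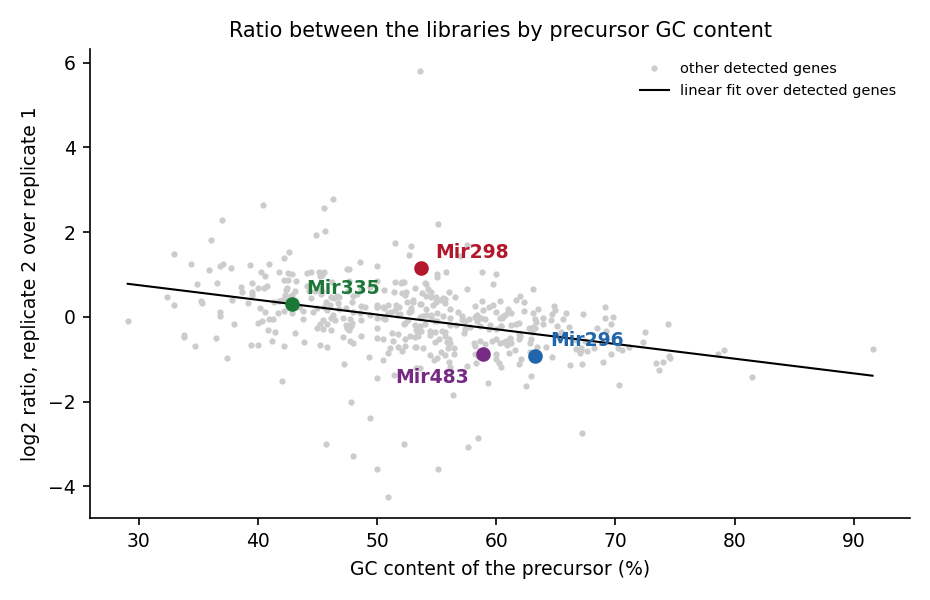
Log2 ratio of replicate 2 over replicate 1 against the GC content of the precursor (%) for 438 detected genes, with a linear fit (line) and the 4 detected imprinted genes in colour. Mir335 lies on the line, Mir296 and Mir483 below it and Mir298 above it.

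Markers of other cell types also differed between the libraries, and their part in the members' ratios was not tested. Of the choroid plexus and ependyma list (Mir204, Mir211, Mir34b, Mir34c, Mir449a), 4 of 5 genes were called higher in replicate 2, as Mir298 was. Across all detected genes, 9.36% were called toward replicate 2 and 8.68% toward replicate 1. The gene of this list not called was Mir449a, with a log2 ratio of 0.22. The choroid plexus and ependyma list summed to 1173 CPM in replicate 1 and 2471 CPM in replicate 2. Of the epithelium list (Mir200a, Mir200b, Mir200c, Mir141, Mir429, Mir205), 6 of 6 were called higher in replicate 1, the library in which Mir296 and Mir483 had the higher levels, with sums of 12791 and 1992 CPM. The endocrine and liver list gave 1 call of 2, Mir375 toward replicate 1, with sums of 1973 and 298.9 CPM. Those sums were mostly Mir375 (1948 and 267.5 CPM). The other gene of that list, Mir122, leaned toward replicate 2 (log2 ratio 0.43, 112 against 219 counts) and was not called. No gene of these 3 lists was at 0. The red blood cell list (Mir144, Mir451a) did not reach 2 CPM in each library and was not tested. It summed to 2.48 CPM in replicate 1 and 10.7 CPM in replicate 2, with 8 and 75 counts of Mir451a. Mir144 went the other way, with 3 counts in replicate 1 and 0 in replicate 2. Of the 7 neuronal, 3 oligodendrocyte and 3 endothelial and mural cell genes tested, none was called, and the 3 Mir124a genes of the neuronal list, short of 2 CPM in at least 1 library, were not tested. In a bulk tissue, a change in the share of a cell type and a change of RNA within it cannot be told apart.

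The 5 genes held a small part of the counts of miRNA genes at imprinted loci. Which parental copy the reads came from was not measured. The 67 miRNA genes between Dlk1 and Dio3 on chromosome 12 held 13.6% ± 1.29 of the counts (SD, n = 2), with 51 detected, 18 at 1000 CPM or above on average and a median of 119 CPM. Of the 5 genes here, 1 reached 1000 CPM and the median was 145 CPM, that of Mir335. The 119 miRNA genes inside the imprinted gene Sfmbt2 on chromosome 2 held 0.0525% ± 0.00489, with 8 detected and 102 without a count. Reads placed at several loci enter no gene's count, so these values may understate the output of the Sfmbt2 genes. How far the Sfmbt2 genes share reads was not examined. The median over all 2202 genes was 0 CPM. These lists are of unequal size and make-up, and their differences were not tested.

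The only other annotated miRNA gene within 100 kb of a member, besides the members themselves, was Gm27591, 19.1 kb from Mir296 on the opposite strand, with 0 counts in both libraries.

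The genes with the most similar levels were found by Euclidean distance on log2(CPM + 1) over the 2 libraries, a measure that 2 values per gene make coarse. Nearest to Mir298 were Mir411 of the chromosome 12 array (1915 ± 841 CPM, distance 0.28) and Mir31 (1958 ± 991 CPM, distance 0.28). Nearest to Mir296 were Mir574, in Fam114a1 (298 ± 135 CPM, distance 0.14), and Mir1306, in Dgcr8 (306 ± 146 CPM, distance 0.17). Mir350, in Cep170 (142 ± 22.6 CPM), and Mir421, in Ftx (144 ± 0.581 CPM), were nearest to Mir335, at distances of 0.12 and 0.13. Mir1188, in Rian (24.8 ± 8.35 CPM), and Mir7046, in Rabac1 (21.1 ± 11.0 CPM), were nearest to Mir483, each at 0.25. All SDs are over 2 libraries.

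**Figure D5:**
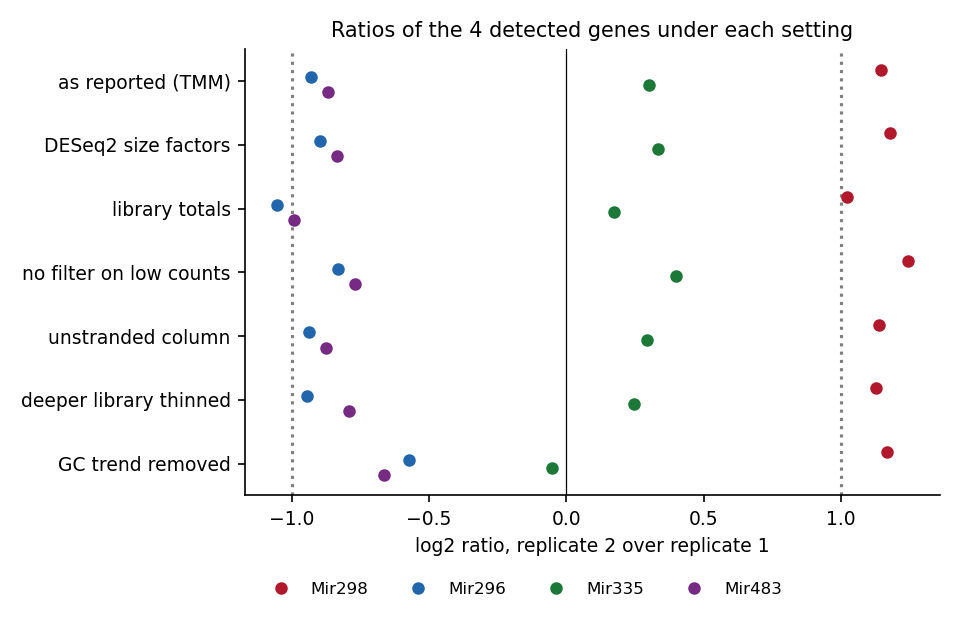
Log2 ratio of replicate 2 over replicate 1 for the 4 detected genes under the reported setting and 6 others, with dotted lines at a ratio of 2. Mir298 stays beyond the line in each setting, Mir296 crosses it with library totals, and Mir335 changes sign with the GC trend removed.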

How the data were processed

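The authors deposited 1 table of raw read counts per library, per the labels on mm10 with the M21 annotation. The aligner, the counter and the trimming settings were not given in the sources used here. The labels cite a different adapter trimming document for each library, so trimming and replicate cannot be told apart. The sense column was used, and the 4 summary lines that name no gene were left out: in replicate 1 and replicate 2, reads placed at several loci were 43.9% and 47.9% of reads, unmapped reads 17.0% and 11.1%, and reads outside genes 3.67% and 2.81%. All 2202 identifiers matched GENCODE M21.

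CPM used the total of all gene lines. Library sizes were scaled by TMM (edgeR 4.0.16, R 4.3.3), and tests used scipy 1.17.1, with 0.5 counts added for log2 ratios. The members, lists and rules for named genes (the members, the 2 genes nearest in level, neighbours within 100 kb and genes sharing a seed) were chosen with earlier results of these data known. Alternatives were DESeq2 1.42.0 size factors, library totals, no filter on low counts, the unstranded column, thinning of the deeper library, removal of the GC trend, a ratio of 1.5, other denominators and single libraries.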

Additional observations from a re-analysis of the deposited data

How the results depend on the processing

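With 2 libraries and 1 group, no result speaks to variation between animals, and depth limits Mir675 to an upper bound and leaves Mir483 with 139 and 110 counts. The count of called genes was 79 as reported (41 toward replicate 2 and 38 toward replicate 1), 60 with the GC trend removed and 171 at a ratio of 1.5. Library totals gave 84 calls, 29 toward replicate 2 and 55 toward replicate 1, and moved the median log2 ratio of detected genes from -0.03 to -0.16. With library totals 2 members were called, Mir296 (-1.05) beside Mir298 (1.02). At a ratio of 1.5, 3 members were called. In the other 5 alternatives, all at a ratio of 2, 1 member was called. Over 6 alternatives the log2 ratio of Mir298 ran from 1.02 to 1.25, that of Mir296 from -1.05 to -0.57 and that of Mir483 from -0.99 to -0.66. Mir335 changed sign to -0.054 with the GC trend removed (adjusted p by the exact binomial test 0.567) and otherwise stayed positive, up to 0.40. The summed level of the 5 genes was 1669 CPM without replicate 2 and 2625 CPM without replicate 1. With Mir139, the most abundant gene, left out of the library total, it was 2689 CPM, and Mir335, at 181 CPM, lay more than 1 SD above its reported level. The counts of the 5 genes, and so the ratio within the Gnas pair, were the same in the unstranded column. No paired analysis was possible because the series has a single group.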
